A study of Mus musculus with 24 samples.

Results

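The mechanosensitive channel genes examined here are Piezo1, Piezo2, Tmem63b, Trpv4, Trpm7, Pkd1, Pkd2, Kcnk2, Cacna1c and Cacna2d1. A member was a probe set whose single symbol in the array's probe annotation was 1 of these 10 names, and the brightest probe set of a gene stood for it. By this rule 9 of the 10 genes had a probe set (all but Pkd2), of 19938 genes with one on the array, and 8 of those 9 passed the filter on dim probe sets, of 14489 genes tested. Expression was measured on 24 Affymetrix arrays of total RNA from MLO-Y4, a mouse cell line with features of osteocytes, the cells embedded in bone. The arrays form 8 groups of 3. In the IgG arm cells received an irrelevant rabbit IgG at a 1:50 dilution. In the E2 arm they received Cx43(E2) at the same dilution (28 µg/ml), a blocking antibody against connexin hemichannels of the Cx43 type. Exposure lasted 30 min at 37 °C in 5% CO2, in 35 mm dishes. Cells then stayed in the incubator (group C of each arm) or were moved to the platform of a high magneto-gravitational environment (HMGE), at a position labelled 1g, 2g or μg (ug here). How long they stayed there is not given in the sources used here. All groups come from 1 cell line, no group went without antibody, and no label says that the replicates are separate cultures, so p-values measure only the spread between these arrays. A set here means the 4 arrays of 1 arm with 1 replicate number, written IgG 1 to IgG 3 and E2 1 to E2 3. The comparisons address which of these channels the line expresses and whether the gravity level of the culture position changes them.

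Osteocytes are regarded as the main mechanical sensors of bone, and calcium entry is among the earliest responses of a loaded cell. Piezo1 and Piezo2 form channels opened directly by tension in the membrane, and Piezo1 is the one linked to loading of bone. Tmem63b belongs to a family of cation channels opened by stretch or by low osmolarity. Trpv4 and Trpm7 are cation channels of the TRP family: Trpv4 responds to swelling, warmth and fluid flow, and Trpm7 joins a magnesium and calcium permeable pore to a kinase. Pkd1 encodes a large receptor-like protein that works with the channel encoded by Pkd2, among other places in the primary cilium. Kcnk2 encodes a potassium channel opened by stretch. Cacna1c encodes the pore of an L-type voltage-gated calcium channel, and Cacna2d1 an auxiliary subunit that helps bring such channels to the membrane.

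The data show 3 things about these genes. Of the 9 genes with a probe set, 7 were above the level of presumably silent genes on all 24 arrays, and Piezo2 and Kcnk2 were not. None of the 8 tested members passed the F test for a change with the environment, which called 0% of the 14489 genes tested. By contrast, 5 of 8 (Piezo1, Tmem63b, Trpv4, Pkd1 and Trpm7) differed between the sets within an arm, a test that 41.9% of all tested genes also passed.

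Promoters of those 5 genes are shown because their levels differed from set to set. Each is the RefSeq window of 300 bases (250 before the gene's start and 50 from it on, build GRCm38.p6), printed 5′ to 3′ on the gene's strand in lower case. Capitals mark exact matches, on either strand, to 4 motifs: TATAAA, the core promoter box that places the start of transcription; GGGCGG, the box bound by Sp-family factors; TGACG, the core of cyclic AMP response elements; and GGAATG, the motif of TEAD factors.
Piezo1 promoter, chr8:122551280-122551579, minus strand: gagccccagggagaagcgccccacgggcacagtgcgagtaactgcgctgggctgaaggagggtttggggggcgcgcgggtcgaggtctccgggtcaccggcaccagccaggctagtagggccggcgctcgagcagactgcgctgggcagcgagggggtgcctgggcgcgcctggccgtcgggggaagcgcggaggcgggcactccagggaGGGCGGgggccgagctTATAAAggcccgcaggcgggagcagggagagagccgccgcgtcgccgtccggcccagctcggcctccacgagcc
Tmem63b promoter, chr17:45686169-45686468, minus strand: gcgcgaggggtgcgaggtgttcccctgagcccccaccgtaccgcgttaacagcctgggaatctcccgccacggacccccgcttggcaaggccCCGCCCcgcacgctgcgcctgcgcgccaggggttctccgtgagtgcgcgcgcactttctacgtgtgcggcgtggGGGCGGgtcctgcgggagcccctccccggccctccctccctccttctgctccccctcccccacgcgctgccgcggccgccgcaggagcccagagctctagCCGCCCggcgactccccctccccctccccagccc
Trpv4 promoter, chr5:114658372-114658671, minus strand: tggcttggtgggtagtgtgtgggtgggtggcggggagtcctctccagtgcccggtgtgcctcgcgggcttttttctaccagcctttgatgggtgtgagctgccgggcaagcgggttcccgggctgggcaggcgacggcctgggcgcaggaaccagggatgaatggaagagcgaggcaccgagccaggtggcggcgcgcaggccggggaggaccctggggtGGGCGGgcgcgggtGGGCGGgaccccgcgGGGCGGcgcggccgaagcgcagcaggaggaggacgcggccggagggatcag
Pkd1 promoter, chr17:24549700-24549999, plus strand: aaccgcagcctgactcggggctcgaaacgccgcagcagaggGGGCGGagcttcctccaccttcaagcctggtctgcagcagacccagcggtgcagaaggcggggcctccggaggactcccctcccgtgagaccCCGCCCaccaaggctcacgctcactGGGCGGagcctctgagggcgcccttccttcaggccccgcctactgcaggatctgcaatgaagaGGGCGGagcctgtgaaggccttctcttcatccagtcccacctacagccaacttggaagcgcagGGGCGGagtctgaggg
Trpm7 promoter, chr2:126876212-126876511, minus strand: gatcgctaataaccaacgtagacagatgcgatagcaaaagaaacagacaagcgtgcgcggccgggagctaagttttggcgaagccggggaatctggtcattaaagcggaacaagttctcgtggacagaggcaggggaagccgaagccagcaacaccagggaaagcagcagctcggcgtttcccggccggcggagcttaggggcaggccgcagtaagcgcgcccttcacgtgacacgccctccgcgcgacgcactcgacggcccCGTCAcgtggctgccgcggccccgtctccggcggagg
The windows held 34 CpG dinucleotides in Piezo1, 34 in Tmem63b, 30 in Trpv4, 18 in Pkd1 and 35 in Trpm7. The median over 32851 RefSeq promoter windows was 7, the upper quartile was 20, and 11.7% held at least 30. GGGCGG occurred 1 time in Piezo1, 3 times in Tmem63b, 3 times in Trpv4 and 5 times in Pkd1, and no match lay in the Trpm7 window. Of all windows 35.7% held that motif. TATAAA was matched in the Piezo1 window (13.6% of all windows), TGACG in the Trpm7 window (20.8%), and GGAATG in none of the 5 (14.7%). No matches overlapped. These are matches of letters, with no measure of binding.

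Levels are log2 intensities as deposited. Brightness depends on the probes, so levels are set against a common background, and not one gene against another. The background was 1205 probe sets of olfactory and vomeronasal receptor genes, which non-sensory cells are presumed not to express, and their 95th percentile lay between 6.01 and 6.31 on the 24 arrays. Array medians lay between 6.48 and 6.65.

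Piezo1 (probe set 10582376) was read at a mean of 12.07, with a range of 11.73 to 12.30 over the 24 arrays. Its 2 other probe sets, 10582378 and 10582337, had means of 11.56 and 11.35 and followed the first with correlations of 0.909 and 0.955. Tmem63b (10451167) had a mean of 10.71 (10.51 to 10.86). The lowest Piezo1 and Tmem63b arrays thus lay far above the receptor background. The paralogue Piezo2 (10459335) had a mean of 5.88 (5.67 to 6.26). Piezo2 passed the receptor percentile on 1 array and reached the 40th percentile of its array on 3, the fewest that the filter allows, so its membership among the tested genes is marginal. Its other probe sets, at 5.72 and 5.25, passed the receptor percentile on 0 arrays, and the 3 probe sets correlated with each other at only 0.0515 to 0.729.

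Of the TRP channels, Trpv4 (10532839) had a mean of 10.40 (10.18 to 10.66) and Trpm7 (10487277) a mean of 8.20 (7.26 to 9.02). Trpm7 had the widest range of all members. Pkd1 (10442495), the polycystin with a probe set, had a mean of 9.22 (8.88 to 9.57). For Pkd2 no level is given here. Both subunits of voltage-gated calcium channels were above the receptor background on every array: Cacna2d1 (10519855) had a mean of 7.83 (7.28 to 8.37) and Cacna1c (10547322) a mean of 7.60 (7.36 to 7.86). A second Cacna2d1 probe set, 10519815, had a mean of 7.59 and correlated with the first at 0.898. Kcnk2 (10360972) had a mean of 5.63 (5.37 to 5.97), passed the receptor percentile on 0 arrays, failed the filter and was not tested among the members. A level below the receptor background was not told apart from no expression on this array.

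**Figure D1:**
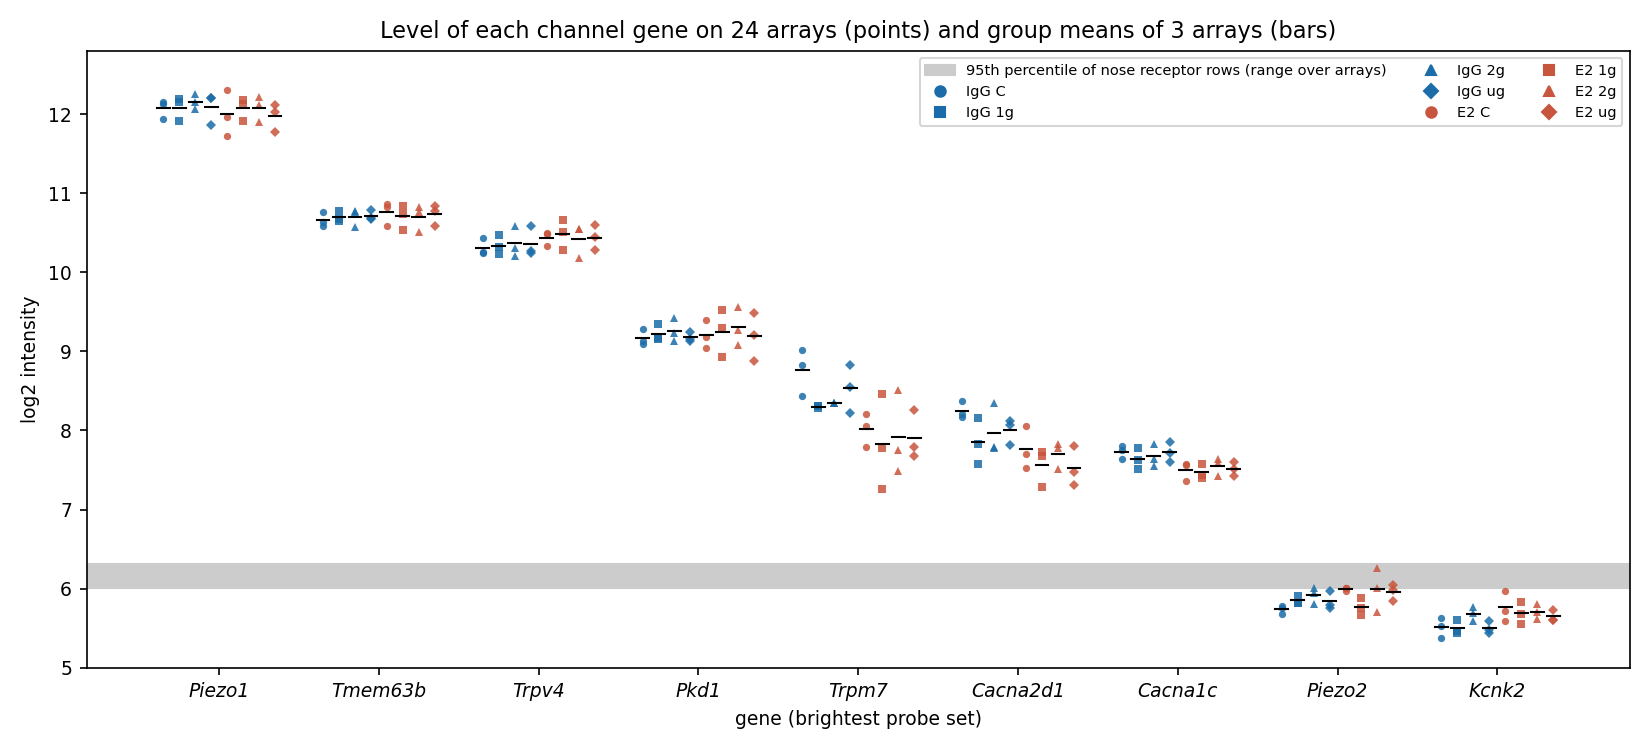
Log2 intensity of the 9 member genes (vertical axis), one point per array, by group (IgG arm in blue, E2 arm in red; circle C, square 1g, triangle 2g, diamond ug), with bars at the means of 3 arrays. The grey band, 6.01 to 6.31, is the range over arrays of the 95th percentile of the receptor probe sets: 7 genes lie above it on every array, and all but 1 of the Piezo2 arrays and every Kcnk2 array lie below their array's percentile.

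Markers of the cell line were mixed. Of 8 osteocyte markers 5 were above the receptor background on all arrays (Pdpn at 12.70, Gja1 at 11.68, Cd44 at 9.08, Sost at 7.07 and Fgf23 at 7.04), whereas Dmp1 (4.74), Mepe (4.60) and Phex (4.61), which also define osteocytes, were below it on all. Of 5 osteoblast markers with a probe set 3 were above it on all arrays, and Sp7 and Ibsp were below it on all. Of the markers of other cell types, those above it on all arrays were 2 of 5 for macrophages, 1 of 4 for endothelium, 3 of 4 for adipocytes, 3 of 4 for chondrocytes, 3 of 4 for skeletal muscle and 1 of 4 for neurons. Below it on all arrays were Ptprc, Adgre1 and Itgam (macrophage), Adipoq (adipocyte), Acan (chondrocyte) and Rbfox3 (neuron). The mean log2 level of a list differed most between sets for the chondrocyte markers (7.31 in IgG 2 to 7.70 in E2 1), the osteoblast markers (7.52 in IgG 1 to 7.85 in E2 1) and the macrophage markers (6.03 in IgG 3 to 6.32 in E2 3). The brightest genes on the 6 lists other than osteocyte and osteoblast were Fabp4 (10.05), Sox9 (9.91), Cd68 (8.66) and Acta1 (8.48). These 4 genes differed between sets (limma adjusted p of 7.61e-09, 1.12e-07, 3.32e-10 and 0.000409), as did the 5 members above, and the part of other cell types in the members' differences was not tested.

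The sets did not follow the arms. With each gene centred on the mean of the 6 sets, the set means over the 14489 genes correlated at 0.828 between IgG 1 and IgG 2 and at 0.719 between E2 1 and E2 2. IgG 3 correlated at -0.263 and -0.461 with the other IgG sets and at 0.205 and 0.327 with E2 1 and E2 2. E2 3 correlated at -0.468 and -0.515 with the other E2 sets and at 0.246 and 0.420 with IgG 1 and IgG 2. IgG 3 and E2 3 therefore each lay nearer to 2 sets of the other arm than to their own. Tests between sets, E2 against IgG, and the Trpm7 and Cacna2d1 changes at 1g in the IgG arm are given below with and without them. A set holds 1 array of each of the 4 environments, so a difference between sets is not a difference between environments.

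Trpv4 showed this pattern most plainly. In IgG 1 its level was 10.25 in C, 10.31 at 1g, 10.21 at 2g and 10.27 at ug. In IgG 2 it was 10.25, 10.23, 10.31 and 10.24. In IgG 3 the same positions read 10.44, 10.47, 10.58 and 10.58. All 4 arrays of IgG 3 were above all 8 of the other IgG arrays. In the E2 arm the order was turned: E2 1 read 10.49, 10.66, 10.54 and 10.44 and E2 2 read 10.49, 10.51, 10.55 and 10.59, against 10.33, 10.29, 10.18 and 10.28 in E2 3. The sets of an arm differed (F of 18.3 on 4 degrees of freedom, limma adjusted p = 1.64e-05), and the arms overlapped. Between-set variation took 73.7% of the sum of squares of Trpv4 and the environment 2.46%, where the medians over all genes were 28.2% and 16.8%.

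Tmem63b, like Trpv4, was higher in IgG 3, E2 1 and E2 2 than in the other sets. Its set means were 10.63, 10.68 and 10.77 in IgG 1, IgG 2 and IgG 3 and 10.82, 10.79 and 10.55 in E2 1, E2 2 and E2 3. The 4 arrays of E2 3 (10.58, 10.54, 10.51 and 10.58 in C, 1g, 2g and ug) lay below all 8 other arrays of that arm, the lowest of which read 10.74. Sets differed with an F of 17.3 (limma adjusted p = 2.36e-05) and took 84.0% of its sum of squares, the highest share among the members. Without E2 3 the adjusted p was 0.0520, so the call at 0.05 was lost. Over the 24 arrays Tmem63b and Trpv4 correlated at 0.847, and at 0.506 after each set's mean was removed.

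Piezo1 moved the other way. Its set means were 12.17, 12.19 and 11.94 in IgG 1, IgG 2 and IgG 3, and 12.08, 11.83 and 12.18 in E2 1, E2 2 and E2 3. In IgG 3 the C, 1g, 2g and ug arrays read 11.94, 11.91, 12.06 and 11.86, all below the 8 other IgG arrays, which began at 12.13. In E2 2 they read 11.73, 11.91, 11.90 and 11.77, all below the other E2 arrays, which began at 11.97. The gene thus had 1 low set in each arm. Sets differed with an F of 20.99 (limma adjusted p = 6.73e-06), and both other probe sets of Piezo1 were also lowest in IgG 3 and E2 2 within their arm (11.40 and 11.34 for 10582378, 11.19 and 11.13 for 10582337). Over the 24 arrays Piezo1 and Trpv4 correlated at -0.653.

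Pkd1 was highest in E2 1 (9.40, 9.52, 9.57 and 9.48 in C, 1g, 2g and ug) and lowest in E2 3 (9.18, 8.93, 9.08 and 8.88). Its other set means were 9.20 in E2 2 and 9.14, 9.19 and 9.30 in IgG 1, IgG 2 and IgG 3. The arrays of E2 1 did not overlap with those of the other E2 sets. The F for sets was 13.3 (limma adjusted p = 0.000125), and the adjusted p without E2 1 was 0.0558, so the call rested on that set. Within sets Pkd1 moved with Piezo1: their correlation was -0.0308 over the 24 arrays and 0.874 after set means were removed.

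Trpm7 had set means of 8.58, 8.56 and 8.32 in IgG 1, IgG 2 and IgG 3, and of 7.72, 7.68 and 8.36 in E2 1, E2 2 and E2 3. E2 3 lay within the IgG range and the other E2 sets lay below it. Sets differed with an F of 9.63 (limma adjusted p = 0.000792), and without E2 3 the adjusted p was 0.326. Arm and set took 44.4% and 30.9% of its sum of squares. Trpm7 correlated with Trpv4 at -0.760 over the 24 arrays. The calls for Piezo1 and Trpv4 remained in all 10 alternative analyses of the sets, and Tmem63b, Pkd1 and Trpm7 each lost 1 of 10.

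Cacna1c, Cacna2d1 and Piezo2 did not pass the test between sets, with limma adjusted p-values of 0.0586, 0.0802 and 0.473. Cacna1c passed it in 2 of 10 alternatives (adjusted p = 0.0361 without the variance trend and 0.0354 without E2 3), and Cacna2d1 in 1 (0.0100 without E2 1). With both number 3 sets left out, an alternative chosen after the values were seen, Piezo1 and Pkd1 still differed between sets (limma adjusted p of 0.00459 and 0.0139, against 2.22% of genes called), whereas Trpv4 had an adjusted p of 0.999, Trpm7 of 0.984 and Tmem63b of 0.729.

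**Figure D2:**
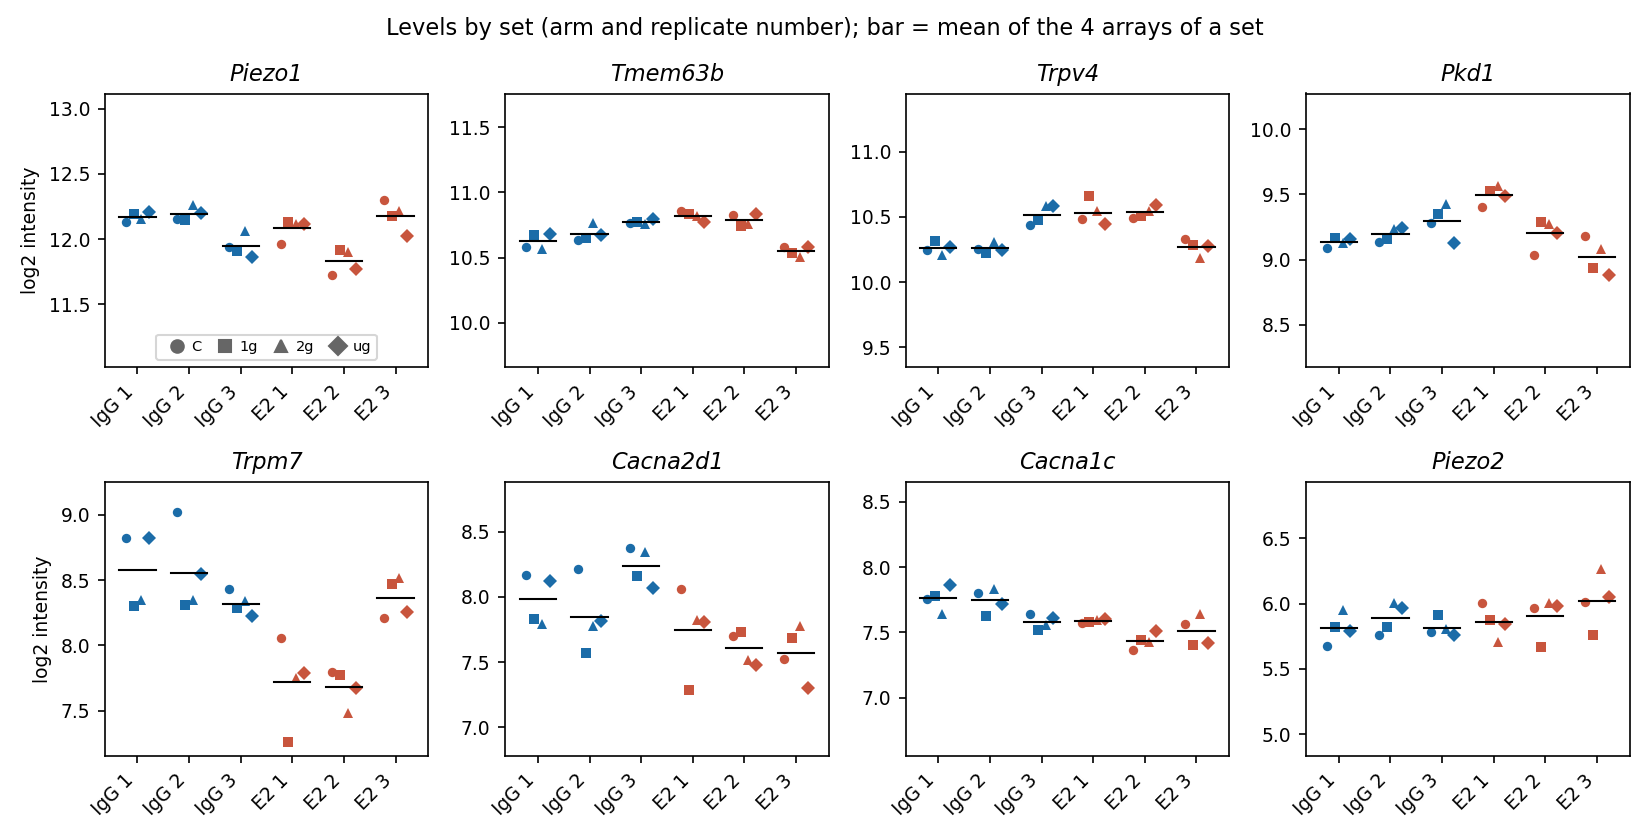
Log2 intensity (vertical axis, the same span of 2.1 units in each panel) of the 8 tested members by set, with 1 point per array, marked by environment, and a bar at the mean of 4 arrays. Trpv4 and Tmem63b are high in IgG 3, E2 1 and E2 2, and Piezo1 is low in IgG 3 and E2 2, while Trpm7 and Cacna2d1 also spread widely within sets (Trpm7 from 7.26 to 8.06 in E2 1).

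Each platform group was first set against the incubator of its arm. These comparisons, and the F test over the environments, take in all that differs between platform and incubator, not the gravity level alone. Comparisons between positions, given further below, stay within the platform. None of the 8 members was called in any of the 6 comparisons (48 values, limma adjusted p below 0.05), and 0% of all genes were called in each of them. At an unadjusted p below 0.05 there were 2 of the 48 values, Cacna2d1 at 1g in the IgG arm and Piezo2 at 1g in the E2 arm. The share of all genes at that unadjusted threshold is not given here, so whether the count exceeds it was not tested. The F test over the 4 environments called no member and 0% of all genes, and the lowest unadjusted p among members was that of Piezo2 (0.181). With the replicate number as a block within the arm no member was called either, against 0.0483% of genes at 1g in the IgG arm and 0% in the other 5 comparisons.

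The members at high levels moved by little. Changes against the incubator ran from -0.03 to 0.08 for Piezo1 (SE 0.13), from -0.06 to 0.06 for Tmem63b (SE 0.10), from -0.01 to 0.05 for Trpv4 (SE 0.13) and from -0.02 to 0.10 for Pkd1 (SE 0.15). The 95% intervals of the 6 Piezo1 changes together spanned -0.30 to 0.35, those of Tmem63b -0.26 to 0.26, those of Trpv4 -0.27 to 0.32 and those of Pkd1 -0.34 to 0.42. With the set as a block they narrowed to -0.15 to 0.20 for Piezo1, -0.16 to 0.15 for Tmem63b, -0.13 to 0.17 for Trpv4 and -0.18 to 0.27 for Pkd1. Changes of a size inside these bounds could not be told from none with 3 arrays a group. Cacna1c changed by -0.09 to 0.05 (SE 0.10).

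**Figure D3:**
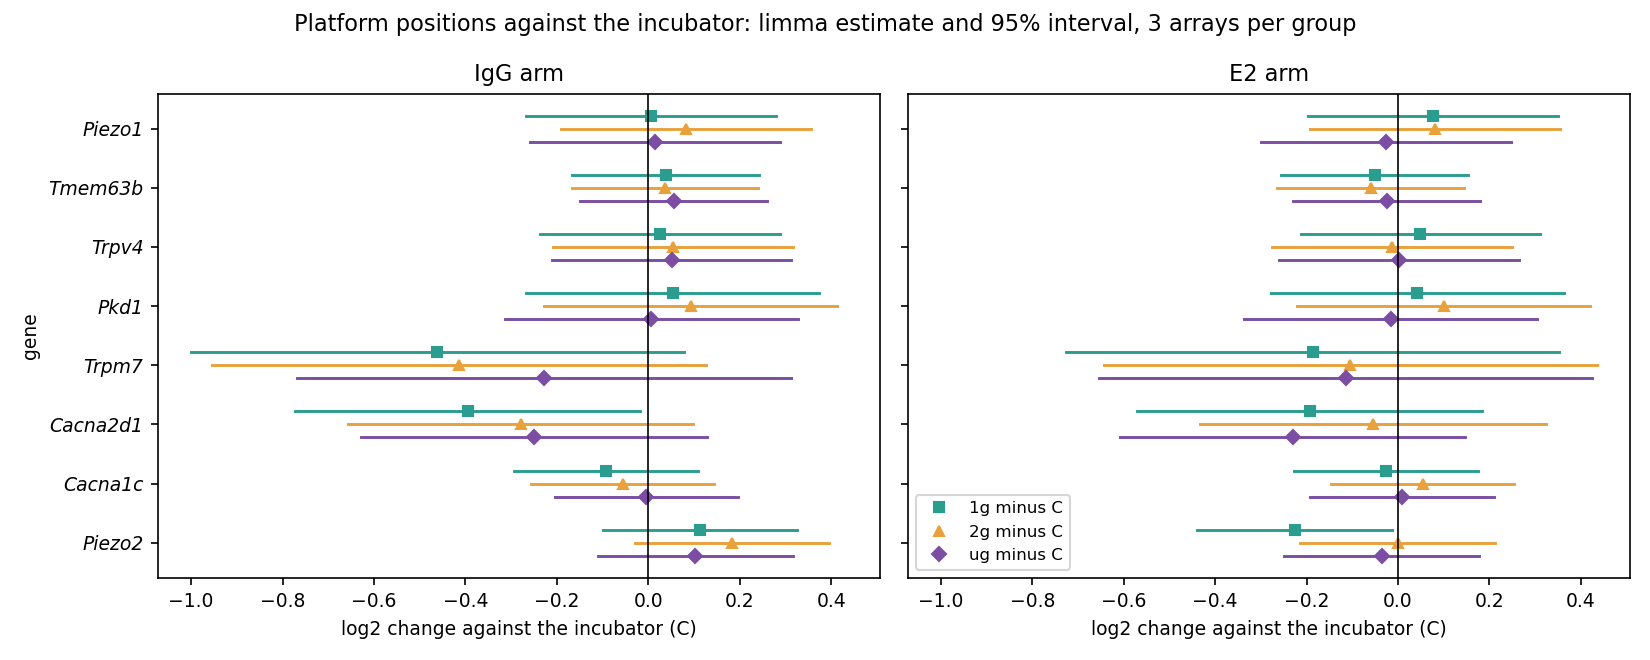
Log2 change of the 8 tested members at 1g, 2g and ug against the incubator (horizontal axis) in the IgG arm and the E2 arm, with limma's 95% intervals from the fit without a block. Of the 48 intervals 46 include 0; the estimates for Trpm7 and Cacna2d1 lie below 0 in all 6 comparisons and those of Trpm7 reach -0.46.

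Trpm7 and Cacna2d1 had the largest estimates. Trpm7 in the IgG arm read 8.83, 9.02 and 8.43 in the incubator (numbers 1, 2 and 3), 8.30, 8.31 and 8.29 at 1g, 8.35, 8.35 and 8.34 at 2g, and 8.83, 8.55 and 8.22 at ug. The 3 incubator arrays were above all arrays at 1g and 2g and overlapped with those at ug. In the E2 arm it read 8.06, 7.80 and 8.21 in the incubator, 7.26, 7.78 and 8.47 at 1g, 7.75, 7.48 and 8.51 at 2g, and 7.79, 7.67 and 8.26 at ug, and the groups overlapped throughout. In the IgG arm the change at 1g was -0.46 ± 0.26 (SE, 3 arrays a group; limma adjusted p = 0.814). With the block it had an SE of 0.15 and an adjusted p of 0.181. With both number 3 sets left out and no block, that change was -0.62 ± 0.15 (SE; limma adjusted p = 0.282, with 0% of genes called).

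Cacna2d1 in the IgG arm read 8.17, 8.21 and 8.37 in the incubator, 7.83, 7.57 and 8.16 at 1g, 7.79, 7.77 and 8.35 at 2g, and 8.12, 7.81 and 8.07 at ug. The incubator arrays were above all those at 1g and at ug and overlapped with 2g. In the E2 arm it read 8.06, 7.70 and 7.52 in the incubator, 7.28, 7.73 and 7.68 at 1g, 7.82, 7.51 and 7.78 at 2g, and 7.81, 7.48 and 7.30 at ug, with overlap in each comparison. The change at 1g in the IgG arm was -0.40 ± 0.18 (SE; limma adjusted p = 0.802). Arrays of the 2 groups that do not overlap are common on this platform: in the IgG arm this held for 15.9% of all genes at 1g, for 19.3% at 2g and for 13% at ug, and in the E2 arm for 5.51%, 4.79% and 8.07% (the last 2 with no member among them).

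Compared with the incubator array of their own set, 15 of 18 platform arrays were lower for Trpm7, and 15 of 18 for Cacna2d1. The mean of the 3 positions was lower in 5 of 6 sets for each gene, all but E2 3. For the other tested members 4 to 10 of 18 arrays were lower. The 3 platform arrays of a set share 1 incubator array, so the 18 values are not independent. How many of all genes reach such counts is not given here. All 3 positions averaged against C, a comparison added after the data were seen and fitted with the block, gave -0.37 ± 0.12 for Trpm7 in the IgG arm (SE; limma adjusted p = 0.126) and -0.14 ± 0.12 in the E2 arm (adjusted p = 0.833). For Cacna2d1 it gave -0.31 ± 0.12 (adjusted p = 0.161) and -0.16 ± 0.12 (adjusted p = 0.796). No member was called, against 0.704% of genes in the IgG arm, 0% in the E2 arm and 0.669% with both arms averaged. Without set E2 1 both genes passed in the IgG arm (adjusted p of 0.0381 for Trpm7 and 0.0422 for Cacna2d1, with 5.65% of genes called), and without IgG 2 both had an adjusted p of 0.83. Set E2 1 holds no IgG array. Leaving it out kept the IgG changes as they were and altered only the spread that all arrays share and the genes tested.

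Variation within sets was also described across the array. The first principal component of all tested genes except the members, after set means were removed, took 26.5% of the variance. A component has no sign of its own, and the sign of this score was set so that Trpm7 correlated with it positively. With that sign 5 of 6 incubator arrays scored above 0. Their scores ran from -6.06 to 15.02 (median 6.32), and those of the platform positions overlapped with them: -15.64 to 6.14 at 1g (median -0.98), -9.86 to 5.90 at 2g (median -1.11) and -5.56 to 2.77 at ug (median -2.98). The deviations of Trpm7 and Cacna2d1 from their set means correlated with that score at 0.899 and 0.877 over the 24 arrays, where 0.40% and 0.88% of genes had a correlation of that size or more in either direction. Trpv4 correlated with it at -0.567, Piezo2 at -0.425 and Tmem63b at -0.413, sizes that 26.8%, 45.2% and 46.8% of genes reached. Piezo1 (-0.190), Pkd1 (-0.186) and Cacna1c (0.0591) hardly followed it. Trpm7 and Cacna2d1 correlated with each other at 0.928 after set means were removed. The points share their arrays, and the part of this component in the changes of Trpm7 and Cacna2d1 was not tested.

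**Figure D4:**
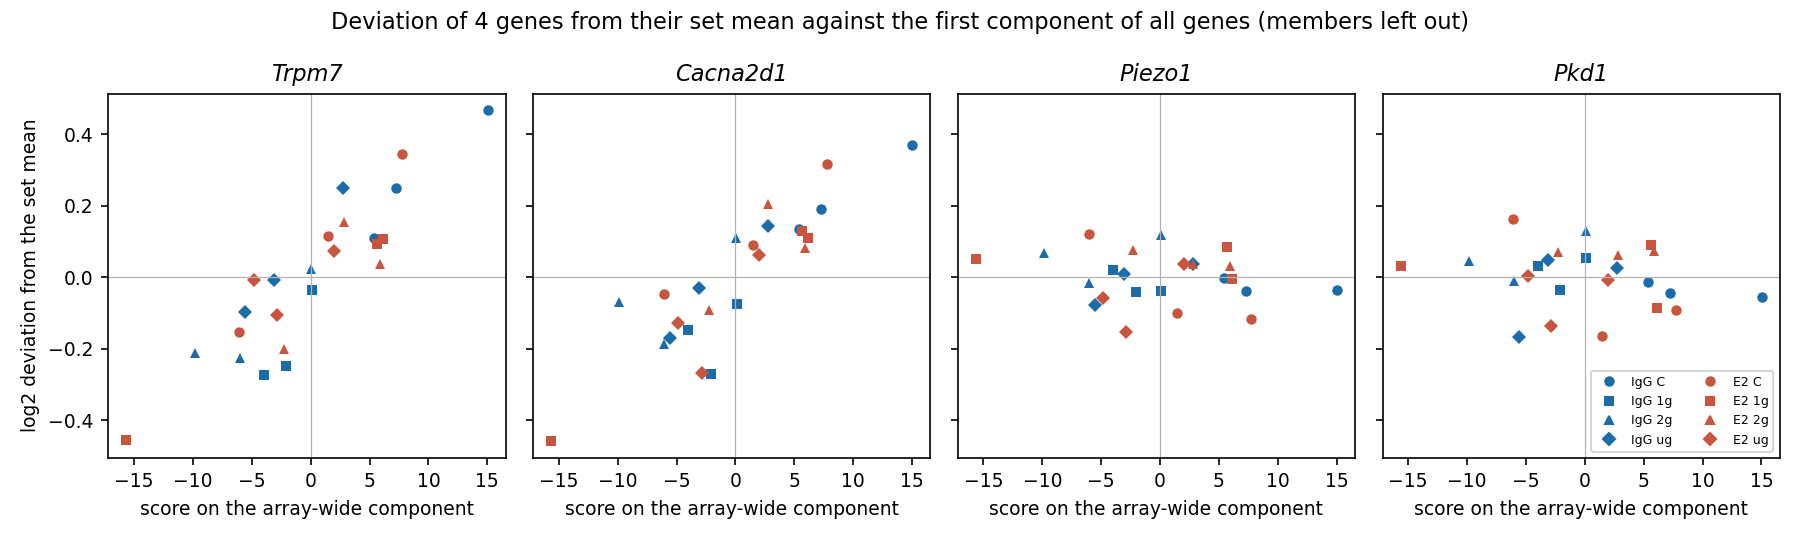
Log2 deviation of Trpm7, Cacna2d1, Piezo1 and Pkd1 from their set mean (vertical axis) against the score of the array on the first component of all other genes (horizontal axis), 1 point per array, coloured by arm and marked by environment. The sign of the score was set so that Trpm7 rises with it. Trpm7 and Cacna2d1 rise with the score (correlations of 0.899 and 0.877), Piezo1 and Pkd1 do not (-0.190 and -0.186).

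Piezo2 and Kcnk2 are given for completeness, since their levels lay at or below the receptor background. Piezo2 in the IgG arm read 5.67, 5.76 and 5.78 in the incubator and 5.82, 5.82 and 5.91 at 1g, and in the E2 arm between 5.97 and 6.01 in the incubator and 5.88, 5.67 and 5.76 at 1g. The groups did not overlap in either arm, upward in the first and downward in the second. The same held, in either direction, for 15.9% of all genes in the IgG arm and 5.51% in the E2 arm. At 2g in the IgG arm Piezo2 also lay above the incubator without overlap, where 19.3% of genes did not overlap. The changes of Piezo2 at 1g were 0.11 ± 0.10 and -0.23 ± 0.10 (SE, limma adjusted p of 0.882 and 0.9996). Kcnk2, fitted without the filter, changed by -0.11 to 0.17 with an SE of 0.09.

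Between positions of the platform no member was called in 6 comparisons (48 values), and 0% of genes were called in each. The changes ran from -0.18 for Cacna2d1 to 0.23 for Trpm7. An unadjusted p below 0.05 was reached by 1 of 48, and the share of all genes that reached it is not given here. For 2g against 1g in the IgG arm the Trpm7 arrays did not overlap (8.35, 8.35 and 8.34 against 8.30, 8.31 and 8.29), a difference of 0.05 log2 units, and 7.96% of genes did not overlap there. In the other 5 comparisons of positions no member's arrays separated, against 5.63% of genes for ug and 1g and 4.61% for ug and 2g in the IgG arm, and 4.8% for 2g and 1g, 5.76% for ug and 1g and 6.78% for ug and 2g in the E2 arm.

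Blocking hemichannels was compared by setting E2 against IgG in each environment. No member was called in any of the 4 comparisons (32 values, limma), where 2.92% of genes were called in the incubator and 0% elsewhere. At an unadjusted p below 0.05 there were 7 of 32. The share of all genes at that threshold is not given here, so whether the count exceeds it was not tested. Trpm7 was lower by 0.74 in the incubator (-0.74 ± 0.26, SE, limma adjusted p = 0.0805), and by 0.46, 0.43 and 0.63 at 1g, 2g and ug (changes of -0.46, -0.43 and -0.63). Cacna2d1 differed by -0.49 ± 0.18 in the incubator (adjusted p = 0.0920) and by -0.47 at ug, and Cacna1c by -0.23 ± 0.10 (adjusted p = 0.120) and -0.22. In the incubator Cacna1c read 7.76, 7.80 and 7.64 with IgG and 7.57, 7.36 and 7.57 with E2, without overlap. The arrays of Trpm7, Cacna2d1 and Cacna1c (lower with E2) and of Piezo2 (higher) did not overlap in the incubator, as was true of 35% of all genes. At ug this held for Cacna2d1 and Cacna1c, and for 17% of genes; at 1g and 2g it held for no member, and for 13.3% and 9.42% of genes.

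These differences hung on which sets were compared. Over the means of 3 sets against 3, limma called 0 of all genes. The exact two-sided permutation test gave 0.1 for Cacna2d1, which is the smallest value that 3 against 3 allows, and 0.2 for Trpm7 and Cacna1c. Without E2 3, Trpm7 passed in the incubator (-0.83, limma adjusted p = 0.0378) and at 1g (-0.78, adjusted p = 0.0288), and without E2 1, Cacna2d1 passed in the incubator (-0.64, adjusted p = 0.0380). The share of all genes called in these fits is not given here, so whether the calls exceed it was not tested. With both number 3 sets left out, 11 of 28 values passed in the 7 members still tested, while the share of all genes called was 30.2% in C, 25.6% at 1g, 14% at 2g and 24.3% at ug. Trpm7 then differed by -0.996 ± 0.153 in the incubator and Trpv4 by 0.240 ± 0.0701 (limma adjusted p of 0.000417 and 0.0193). Those sets were left out because their values lay nearer to the other arm, so this choice itself parts the arms and supports no antibody effect. The arm of IgG 3 and E2 3 rests on their labels, and whether number 3 of the arms was exchanged was not tested. Cacna2d1, which did not pass the test between sets, had set means of 7.98, 7.84 and 8.24 in IgG 1, IgG 2 and IgG 3. In E2 1, E2 2 and E2 3 they were 7.74, 7.61 and 7.57, so its number 3 sets were the highest and the lowest. What these values say of the labels was not tested. An effect of the antibody cannot be told apart from differences between sets. For no member did the change from incubator to platform pass the test of a difference between the arms (24 values, 0 called, and 0% of genes called). An unadjusted p below 0.05 was reached by 1 of the 24, and the share of all genes that reached it is not given here.

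**Figure D5:**
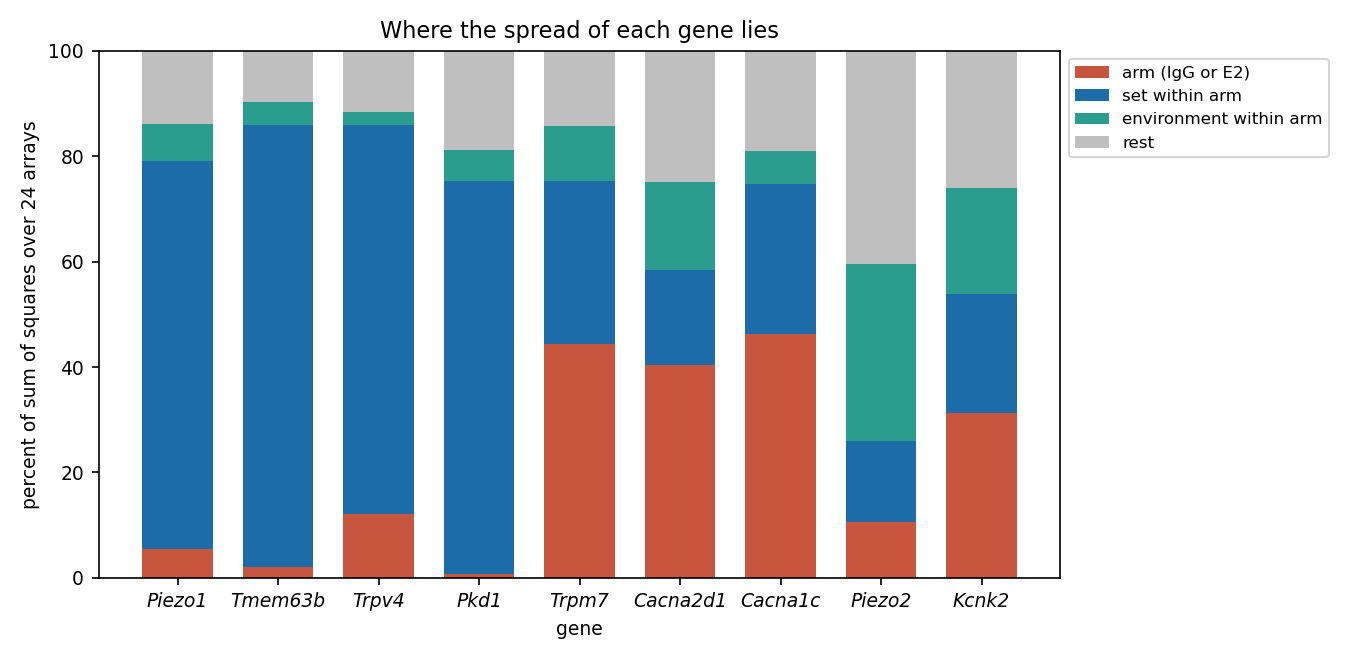
Share of the sum of squares over 24 arrays (vertical axis, percent, bars adding to 100) that lies between arms, between sets within an arm, between environments within an arm, and in the rest, for the 9 members with a probe set. Sets take 73.6% in Piezo1, 84.0% in Tmem63b, 73.7% in Trpv4 and 74.5% in Pkd1, and the environment takes 33.5% in Piezo2 and less in every other member.

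The environment was the largest of the 4 sources of variation in 0 of the 8 tested members, and in 9.66% of all genes. Sets were the largest source in 4 members (Piezo1, Tmem63b, Trpv4 and Pkd1) and in 40.4% of all genes, and the arm in 3 members (Trpm7, Cacna1c and Cacna2d1) and in 16.8% of all genes. The shares are not adjusted for the unequal degrees of freedom of the 4 sources, so their order is a description only.

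Other channels linked to mechanical stimuli were read in the same way. Of 23 such genes 22 had a probe set, 8 were above the receptor background on all arrays and 14 were tested. None was called in the environment comparisons, each of which called 0% of all genes. Against the incubator the medians of the 14 in the IgG arm were 0.05, 0.04 and 0.05 (order 1g, 2g, ug). There 10, 11 and 9 of 14 were higher. In the E2 arm the medians were -0.084, -0.017 and -0.065, and 12, 11 and 10 were lower. Medians over all genes ran from -0.025 to 0.011, with -0.013 for 2g in the E2 arm. All positions of an arm share its incubator arrays. For E2 against IgG in the incubator 11 of 14 were higher (median 0.12, all genes 0.022). On the platform 7, 7 and 6 were higher. Pkd1l1 (5.97), Tmem63c (5.99) and Asic3 (5.99), among others, lay close to the receptor background. Whether dim probe sets shift alike was not tested. Between sets 4 of 14 differed, against 41.9% of all genes: Tmem63a (mean 11.06, F of 77.1, limma adjusted p = 5.05e-10), the paralogue of Tmem63b, Kcnk10 (10.78, F of 14.7, adjusted p = 6.64e-05), a stretch-sensitive potassium channel related to Kcnk2, Tmem87a (9.19, adjusted p = 0.000182) and Asic1 (7.76, adjusted p = 0.0320), an acid-sensing channel. Kcnk10 was thus well above background in a line where Kcnk2 was not. Below the receptor percentile on all arrays were 9 of the 22: Tmem63c, Trpc5, Trpc6, Trpm3, Trpa1, Pkd2l1, Kcnma1, Tmc1 and Tmc2.

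Of 16 other subunits of voltage-gated calcium channels 15 had a probe set, 8 were above the receptor background on all arrays and 11 were tested. No environment comparison called any, and each called 0% of all genes. Apart from Cacnb1 (7.63) and Cacna1a (7.01), their means ran from 5.99 (Cacna1s) to 6.64 (Cacna2d2). These levels are close to the receptor background of 6.01 to 6.31. Whether other probe sets this dim shift in the same way was not tested. The estimates of the subunits against the incubator pointed in different directions in the arms. In the IgG arm 11 of 11 were higher at 1g (median 0.07), 10 of 11 at 2g (median 0.16) and 9 of 11 at ug (median 0.13), and in the E2 arm 1 of 11 was higher at 1g (median -0.046), 4 of 11 at 2g (median -0.023) and 3 of 11 at ug (median -0.052). The medians over all genes lay between -0.025 and 0.011 in these 6 comparisons. For E2 against IgG in the incubator, whose arrays are the controls of those 6, 11 of 11 were higher (median 0.21, all genes 0.02). At 1g, 2g and ug 10, 7 and 9 of 11 were higher (medians 0.09, 0.04 and 0.04). Between sets Cacna1g (6.31, limma adjusted p = 0.00284) and Cacnb1 (7.63, adjusted p = 0.00901), a pore and a cytoplasmic subunit, differed (2 of 11, against 41.9% of all genes).

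Downstream of calcium entry, 24 of 27 genes of calcium stores, pumps and calcineurin signalling that had a probe set were tested, and 23 were above the receptor background on all arrays. The test of the environment called none (0% of all genes), and 15 of 24 differed between sets, where 41.9% of all genes did. They were led by Rcan1 (10.79, F of 30.6, limma adjusted p = 4.91e-07), a calcineurin inhibitor, Ppp3ca (11.07, adjusted p = 1.84e-06), a calcineurin catalytic subunit, Calm3 (11.70, adjusted p = 2.37e-06), a calmodulin, and Atp2b1 (11.34, adjusted p = 0.000306), a calcium pump of the cell membrane. Of 12 primary cilium genes with a probe set 10 were tested and 10 were above background on all arrays. None was called for the environment (0% of all genes), and 6 of 10 differed between sets (41.9% of all genes). The smallest limma adjusted p-values were those of Ift20 (11.42, 0.00263), Ift140 (8.60, 0.00268), Tmem67 (8.76, 0.00316) and Bbs4 (7.07, 0.00535), which serve transport in the cilium or its gate. Against the incubator the cilium list had 8 of 10 lower estimates at each position in the IgG arm (medians -0.091, -0.13 and -0.087 at 1g, 2g and ug) and 7, 6 and 9 of 10 in the E2 arm (medians -0.048, -0.014 and -0.078). The medians over all genes lay between -0.025 and 0.011 in these comparisons. For E2 against IgG 9 of 10 were lower in the incubator (median -0.24, all genes 0.022). At 1g, 2g and ug 8 of 10 were lower each time (medians -0.20, -0.14 and -0.26). All genes there had medians of -0.0093, -0.00024 and -0.0034. None of the genes on these lists passed the test of the environment, as none of the members did, and 0% of all genes passed it without the block.

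The genes most alike to each expressed member were taken as the 3 with the highest correlation over the 24 arrays, a description in which sets weigh most. Trpv4 was followed most closely by Aqp1 (0.961), a water channel, Slc37a2 (0.959) and Mxra8 (0.957), with correlations of 0.696, 0.831 and 0.728 after set means were removed. For Tmem63b these were Galnt10 (0.930), Selenoo (0.920) and Smad9 (0.918), falling to 0.539, 0.545 and 0.447. Likeness of Tmem63b thus lay mostly between sets. For Piezo1 they were Polr1a (0.926), the largest subunit of RNA polymerase I, Zmat3 (0.926) and Flnc (0.921), a filamin, and within sets 0.845, 0.758 and 0.791. For Pkd1 they were Cit (0.949), Cad (0.932) and Hspg2 (0.927), the core protein of perlecan, with 0.858, 0.829 and 0.764 within sets. Trpm7 was followed by Suz12 (0.981), a Polycomb subunit, Ythdf3 (0.980), a reader of methylated RNA, and Odr4 (0.978), and these held within sets (0.939, 0.943 and 0.944). Such correlations are common for Trpm7: 9.06% of genes correlated with it above 0.8. Cacna2d1 was followed by Sos2 (0.962), Pik3r1 (0.952), a regulatory subunit of phosphoinositide kinase, and Efr3a (0.934), with 0.916, 0.894 and 0.861 within sets. Cacna1c had the weakest likeness, with Pkp4 (0.834), Ric1 (0.832) and Tmem117 (0.827), and 0.314, 0.563 and 0.565 within sets.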

How the data were processed

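RNA of MLO-Y4 cells was measured on 24 arrays in 8 groups of 3. The deposited values are log2 intensities, as the values show. The submitters' processing notes name MAS5 without its role or version, and the genome build behind the values is not given in the sources used here. Of 35556 rows 21789 had 1 gene symbol, 1621 had several and 12146 none. Rows at or above the 40th percentile on 3 or more of the 24 arrays were kept (22641), and the brightest row of each gene gave 14489 genes. Replicates were distinct arrays, with an SD of the difference of 0.209 to 0.381 and up to 6 identical values. Precision is limited by the number of arrays.

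Group means were fitted with limma 3.58.1 in R 4.3.3 over all arrays without a block (16 residual degrees of freedom, variance trend, two-sided, Benjamini-Hochberg adjustment within a comparison over all genes, threshold 0.05), with 19 comparisons, an F test over environments and an F test over sets within arms. No label pairs the replicate numbers, but the values mostly do within an arm. All 36 correlations of deviations between arrays of 1 arm and number lay above 0.1 (0.195 to 0.812, median 0.511). Between different numbers of an arm 23 of 72 did so too (-0.675 to 0.548, median -0.452). For 20 of 24 arrays the best match had their own number. The block within arm was an alternative and cannot be fitted to E2 against IgG. Others were a block of number alone, quantile normalization, no filter, averaging the rows of a gene, fits limited to the arrays compared, no variance trend, the 99th percentile of receptor rows, set means and leaving out each set. The mean of the 3 platform positions and the fit without both number 3 sets were added after the data were seen. The code was tested on simulated data.

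All 10 members were named. Of other lists, up to 4 called genes with the smallest p, or the 2 brightest, and of likeness the 3 nearest genes. The other marker genes named, and channels listed as below background, were chosen after their values were seen. Members and lists were chosen with earlier results of these data known. Promoters came from RefSeq (GRCm38.p6), which had an entry for 9 of 10 members.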

Additional observations from a re-analysis of the deposited data

Results flagged for a closer look

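Piezo2 and Tmem63b had opposite signs in the arms for 1g against the incubator: all 3 sets of one arm moved one way and all 3 of the other arm the other way. The difference between the arms (E2 minus IgG) was -0.34 for Piezo2 and -0.089 for Tmem63b, and limma's test of that difference did not pass for either (adjusted p of 0.998 and 0.999). Piezo2 lay at the level of the receptor background on these arrays.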

How the results depend on the processing

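Of 1906 log2 changes of the 8 tested members recomputed under 13 alternatives, 1898 kept their direction, or moved by less than their standard error, and their side of the threshold. With the replicate block, within arm or over all arrays, 0 members were called for the platform positions, between positions or by the environment F test, and it changed no call. Changes that turned their sign by more than their standard error did so only in leaving out 1 set, over which their values ran as follows: Piezo2 at 2g against C in the E2 arm from -0.020 (without E2 replicate 2) to 0.15 (without E2 replicate 1), Trpm7 at 1g against C in the E2 arm from -0.41 (without E2 replicate 3) to 0.12 (without E2 replicate 1), Cacna2d1 there from -0.37 to 0.10 for the same sets, and Cacna2d1 at 2g against 1g in the E2 arm from -0.062 (without E2 replicate 1) to 0.32 (without E2 replicate 2). Piezo1 for E2 against IgG in C ran from -0.23 (without E2 replicate 3) to 0.057 (without E2 replicate 2). Leaving out 1 set gave 0 to 2 calls for E2 against IgG, for which the share of all genes is not given here. For the mean of the platform positions it gave 0 to 2 calls, with 0% to 5.65% of genes called in the IgG arm. Without number 3 of both arms there were 11 calls for E2 against IgG, and 2 members differed between sets. The cause was not tested. The count of 7 members above the receptor background was the same under all 9 alternatives. With 3 arrays a group, changes inside the intervals given could not be seen.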
